A study of Mus musculus with 12 samples.

Results

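Inflammatory cytokines and chemokines were followed in granulocyte-monocyte precursors (GMPs), bone marrow progenitors of the granulocyte and monocyte lineages. The set was 8 named genes: the cytokines Il1b and Tnf, the chemokines Ccl3, Ccl4, Ccl6, Ccl9 and Cxcl2, and Nfkbia, which encodes the NF-kB inhibitor IkBa. Members were the probe sets annotated to these genes alone, 29 of 98975 probe sets with 1 gene symbol, and they gave a value for 7 of the 8 genes, of 14179 genes in all. Cxcl2 had no annotated probe set here and is not analysed here.

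GMPs were sorted from C57BL/6 mice and their RNA was hybridised to 12 Affymetrix mouse Gene 1.0 ST arrays, 3 for each of 4 genotypes. KO mice lacked Gfi1. SNP mice had a variant human GFI1 knocked in, wtKI mice the common human form knocked in, and WT mice the mouse gene. Age, zygosity and whether an array stands for 1 mouse or a pool are not given in the labels, so the spread that p-values measure may be technical. The series asked which genes differ with the human variant, in relation to acute myeloid leukaemia.

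Interleukin-1 beta, encoded by Il1b, and tumour necrosis factor, encoded by Tnf, are released mainly by activated monocytes, macrophages and neutrophils. Both activate NF-kB, a family of dimeric transcription factors held in the cytoplasm by inhibitors such as IkBa. Once in the nucleus, NF-kB induces many cytokine and chemokine genes and also Nfkbia itself, which closes a negative feedback loop. Gfi1 is a zinc finger protein that represses transcription and is required for normal neutrophil formation. In mouse macrophages it has been described as an antagonist of the NF-kB subunit p65.

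The stretches before the transcription start sites of 5 members are printed first, because NF-kB induces genes of this kind and because the members differ in the motifs near their starts. Each is the 250 bases before the start in the RefSeq annotation of build GRCm38.p6, read 5′ to 3′ on the gene's own strand, and all 5 lie on the minus strand. Capitals mark matches, on either strand, to the NF-kB consensus or to TATAAA, the core of the TATA box. The regions are chr2:129371140-129371389 for Il1b, chr17:35202008-35202257 for Tnf, chr11:83593088-83593337 for Ccl6, chr11:83578637-83578886 for Ccl9 and chr12:55492648-55492897 for Nfkbia.
Il1b: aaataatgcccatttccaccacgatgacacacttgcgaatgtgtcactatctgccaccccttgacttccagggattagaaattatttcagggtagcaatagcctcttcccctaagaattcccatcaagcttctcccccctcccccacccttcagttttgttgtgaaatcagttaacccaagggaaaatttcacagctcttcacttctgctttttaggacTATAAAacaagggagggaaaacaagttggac
Tnf: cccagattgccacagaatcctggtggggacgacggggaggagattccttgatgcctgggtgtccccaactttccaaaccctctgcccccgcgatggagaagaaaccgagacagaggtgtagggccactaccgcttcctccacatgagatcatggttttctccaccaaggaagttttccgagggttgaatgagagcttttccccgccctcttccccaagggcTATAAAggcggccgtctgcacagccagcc
Ccl6: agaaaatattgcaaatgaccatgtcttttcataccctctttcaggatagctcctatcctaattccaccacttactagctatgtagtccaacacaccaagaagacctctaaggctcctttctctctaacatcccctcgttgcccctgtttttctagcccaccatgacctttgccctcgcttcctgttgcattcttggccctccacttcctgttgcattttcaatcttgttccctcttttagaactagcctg
Ccl9: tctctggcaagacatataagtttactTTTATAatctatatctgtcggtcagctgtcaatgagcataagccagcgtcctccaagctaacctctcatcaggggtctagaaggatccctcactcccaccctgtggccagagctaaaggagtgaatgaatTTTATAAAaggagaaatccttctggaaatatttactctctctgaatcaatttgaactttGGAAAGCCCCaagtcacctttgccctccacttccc
Nfkbia: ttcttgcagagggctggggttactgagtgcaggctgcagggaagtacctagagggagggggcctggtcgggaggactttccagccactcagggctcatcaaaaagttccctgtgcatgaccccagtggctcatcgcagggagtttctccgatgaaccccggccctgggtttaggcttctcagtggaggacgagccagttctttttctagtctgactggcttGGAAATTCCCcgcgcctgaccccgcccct

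A match to the NF-kB consensus stood in the Nfkbia stretch, at bases -29 to -20 counted back from the start, and in the Ccl9 stretch at bases -35 to -26. The Il1b, Tnf and Ccl6 stretches, and that of Ccl3, held none, and that of Cxcl2, whose level was not analysed here, held 2 overlapping matches from -97 to -87. Of 32851 mouse promoter stretches of the same length, 7.25% held the NF-kB consensus and 12.4% held TATAAA. That TATA core stood at bases -31 to -26 of Il1b and at -29 to -24 of Tnf, while Ccl9 held 3 matches, of which 2 overlap, and Ccl6 and Nfkbia held none. Ccl4 was not in the promoter table. A match describes these letters only.

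Values are log2 signals, summarised over the probe sets of a gene on each array. The level of a probe set depends on its probes, so levels are compared between arrays and not between genes. Every row of the table reached at least 6.14 on some array. A gene was called near background on an array when it lay under the level that 5% of that array's probe sets lay under, which was 4.36 to 5.65 depending on the array. By that measure Il1b was near background on 9 of 12 arrays, Tnf on 6, Ccl3 and Ccl6 on 2 each, and Ccl4, Ccl9 and Nfkbia on none. Differences that involve such arrays have sizes that are not exact.

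KO 1 and SNP 1 stood apart from the other arrays. Their median correlations with the other arrays were 0.690 and 0.621, against 0.831 to 0.881 for the other 10. On SNP 1 all 20 late neutrophil markers measured were above the mean of SNP 2 and SNP 3, with a median of 3.63 on the log2 scale, and so were all 12 erythroid, 9 B-lineage and 8 T and NK cell markers and 10 of 14 monocyte and macrophage markers, the last with a median of 0.60. KO 1 was above the mean of KO 2 and KO 3 in 13 of 20 late neutrophil markers, with a median of 0.73, and in 11 of 12 erythroid markers, with a median of 1.31. Of 14 GMP genes, 4 were higher on SNP 1 than the mean of SNP 2 and SNP 3, with a median of -0.80, and 1 was higher on KO 1 than the mean of KO 2 and KO 3, with a median of -0.45. Mpo, the granule peroxidase of GMPs, was at 10.70 on SNP 1 and at least 11.38 elsewhere, and the progenitor surface gene Cd34 was at 8.55 on SNP 1 and at least 10.45 elsewhere. For none of the 5 Gfi1 probe sets did all KO arrays lie below all WT arrays, and where the probe sets lie relative to the deleted part is not given in the sources used here, so Gfi1 does not check the KO label. A level from sorted cells cannot tell apart more cells of a type and more RNA per cell.

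Il1b separated 1 array from all others. It was at 4.98, 5.06 and 4.76 on KO 1 to 3, at 9.80, 5.35 and 5.80 on SNP 1 to 3, at 5.14, 5.12 and 5.11 in wtKI GMPs and at 5.05, 5.24 and 5.14 in WT GMPs. SNP 1 was the high array, 18.7-fold above the mean of SNP 2 and SNP 3. As gene values these other SNP arrays were also above every KO, wtKI and WT array, by much less and close to background. That order held in probe set 10487598, which reached 6.14 on SNP 1 alone, and in none of the other Il1b probe sets. In 10487601 SNP 2, at 3.52, was the lowest array, and in 10487602 it was at 5.85, under KO 1 at 6.16. The SD in wtKI was 0.01 for the gene values and 0.18 to 0.89 in single probe sets. SNP was above wtKI by 1.86 ± 0.86 (SE, log2, n = 3 each; limma with Benjamini-Hochberg adjusted p = 0.551). Without SNP 1 the difference was 0.46 ± 0.18 (adjusted p = 0.891), so that array set most of its size. SNP minus WT was 1.84 ± 0.86 (adjusted p = 0.320) on 12 arrays and 0.43 ± 0.18 (adjusted p = 0.459) without SNP 1.

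All 5 Il1b probe sets were highest on SNP 1. For 3 of them, 10487598, 10487600 and 10487601, SNP 1 was the only array that reached 6.14, the level that every row of the table reached somewhere, so these rows are in the table through SNP 1 alone and lend its high value no support of their own. The brightest of these 3 was at 9.98 on SNP 1 and at most 5.87 on the other 11 arrays. The Il1b gene value includes these 3 rows, so its height on SNP 1, and the differences that include SNP 1, share this limit. Probe sets 10487599 and 10487602 were at 8.83 and 7.78 on SNP 1 and at most 6.14 and 6.33 elsewhere. The late neutrophil markers moved with this result: their mean level was 10.3 on SNP 1, against 6.80 and 7.17 on the other SNP arrays, 6.53 to 7.23 on the wtKI arrays and 6.61 to 7.39 on the WT arrays. Ly6g, which marks mature mouse neutrophils, was at 9.46 on SNP 1 and 5.90 on SNP 3, and between 2.74 and 3.98 on the others. Erythroid, B-lineage and T and NK cell markers were high on SNP 1 too, with mean levels of 9.61, 8.91 and 8.30. On SNP 2 and SNP 3 these means were at most 6.31, 6.11 and 5.79. The part of any of these cell types in the Il1b level was not tested.

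Tnf was higher on SNP arrays than on every WT array, and this did not rest on SNP 1. Its level was 4.31, 4.15 and 6.12 in KO GMPs, 6.89, 5.78 and 7.09 in SNP GMPs, 5.43, 4.64 and 5.88 in wtKI GMPs and 4.02, 4.26 and 5.55 in WT GMPs. SNP and WT did not overlap, whereas the ranges of SNP and wtKI did, through SNP 2 at 5.78 and wtKI 3 at 5.88. In all 4 genotypes replicate 3 held the highest value. SNP minus WT was 1.98 ± 0.59 (SE, log2, n = 3 each; limma adjusted p = 0.263), with a 95% interval of 0.68 to 3.28. Without SNP 1 the difference was 1.83 ± 0.67 (adjusted p = 0.419). SNP minus wtKI was 1.27 ± 0.59 (adjusted p = 0.551) and wtKI minus WT was 0.71 ± 0.59 (adjusted p = 1.00). Both Tnf probe sets leaned the same way, with SNP minus WT at 1.49 ± 0.52 for 10450504 and 2.48 ± 0.82 for 10450507. SNP and WT did not overlap in 10450504 but did in 10450507, where WT 3 was at 6.17 and SNP 2 at 5.90.

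**Figure D1:**
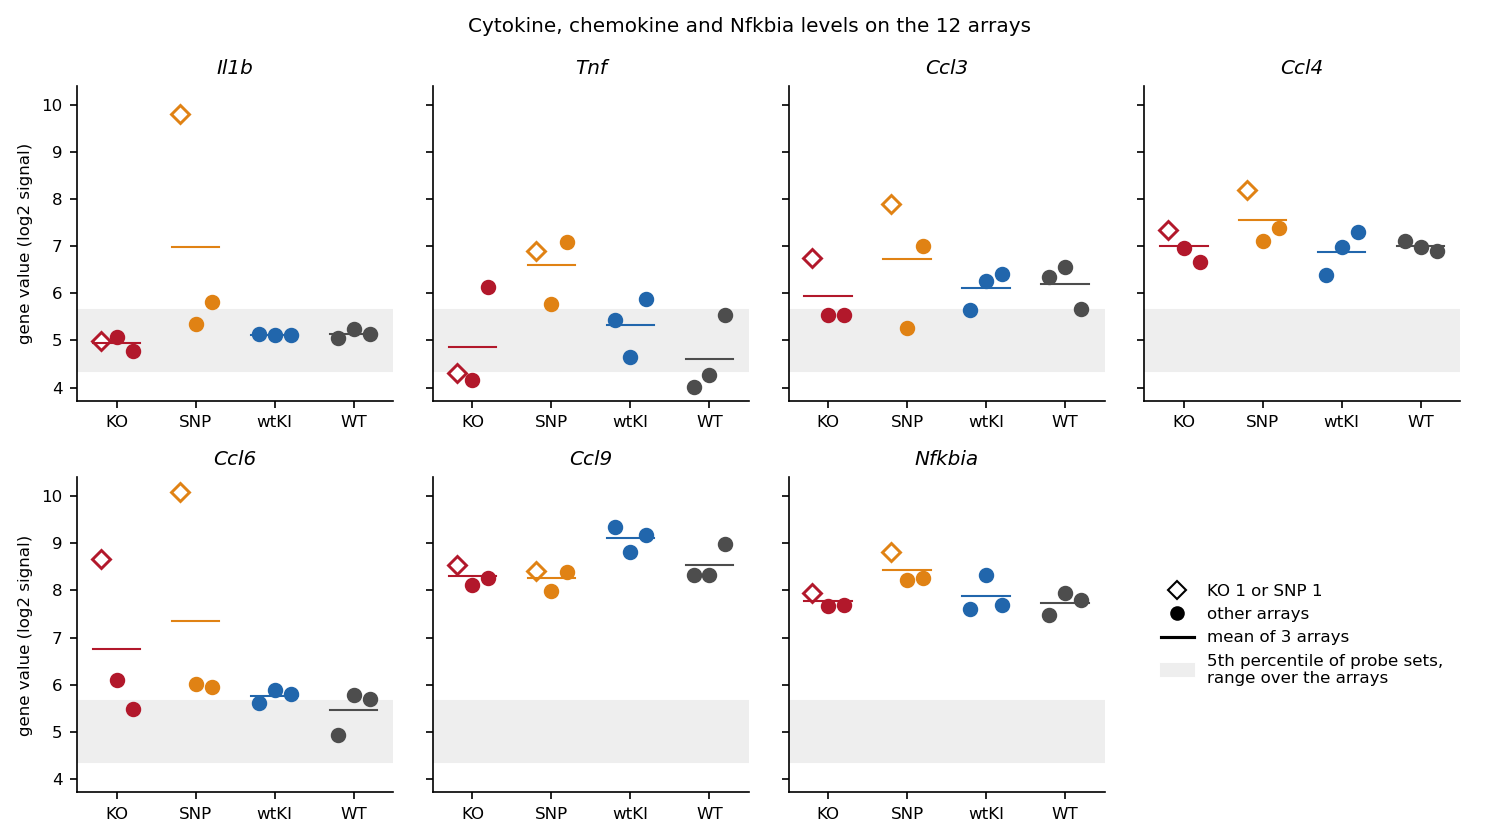
Log2 signal of the 7 members with a value on each array, with genotype along each panel and the mean of each genotype as a line; open diamonds are KO 1 and SNP 1, and the grey band, 4.36 to 5.65, is the range over arrays of the level that 5% of probe sets lie under. Il1b is at 9.80 on SNP 1 and at most 5.80 on the other arrays, Ccl6 is high on KO 1 and SNP 1, and Ccl9 is highest in wtKI.

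Ccl3 and Ccl4 encode the macrophage inflammatory proteins MIP-1 alpha and MIP-1 beta, which attract monocytes and lymphocytes. Ccl3 was at 6.75, 5.54 and 5.53 in KO GMPs, 7.89, 5.27 and 7.005 in SNP GMPs, 5.64, 6.27 and 6.42 in wtKI GMPs and 6.35, 6.57 and 5.66 in WT GMPs. The SNP arrays held both the highest and the lowest value, so the genotypes overlapped throughout. SNP minus wtKI was 0.61 ± 0.58 (SE, log2, n = 3 each; limma adjusted p = 0.688), and 0.03 ± 0.53 without SNP 1. Ccl4 was at 7.35, 6.97 and 6.67 in KO GMPs, 8.19, 7.10 and 7.39 in SNP GMPs, 6.38, 6.98 and 7.29 in wtKI GMPs and 7.11, 6.98 and 6.89 in WT GMPs. SNP 1 was again the highest array, and the others lay within 6.38 to 7.39. SNP minus wtKI was 0.68 ± 0.31 for Ccl4 (limma adjusted p = 0.551) and 0.36 ± 0.28 without SNP 1. KO minus WT was 0.00 ± 0.31 for Ccl4, with a 95% interval of -0.68 to 0.68.

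Ccl6, a chemokine of rodents that acts through Ccr1, was high on the same pair of arrays that stood apart. It was at 8.66, 6.11 and 5.49 in KO GMPs, 10.09, 6.01 and 5.96 in SNP GMPs, 5.61, 5.88 and 5.80 in wtKI GMPs and 4.93, 5.79 and 5.70 in WT GMPs. SNP 1 was 17.3-fold above the mean of SNP 2 and SNP 3, and KO 1 was 7.28-fold above the mean of KO 2 and KO 3. SNP did not overlap wtKI or WT, but SNP 2 and SNP 3 lay just above the highest wtKI array, at 5.88. KO minus WT was 1.28 ± 1.03 (SE, log2, n = 3 each; limma adjusted p = 1.00), and 0.32 ± 0.28 (adjusted p = 0.933) without KO 1 and SNP 1. SNP minus wtKI was 1.59 ± 1.03 (adjusted p = 0.589), and 0.22 ± 0.72 (adjusted p = 0.993) without SNP 1. All 6 Ccl6 probe sets were highest on SNP 1 and had their next value on KO 1. The level of the late neutrophil markers on KO 1, 7.17, was above the 6.08 and 6.52 of the other KO arrays and within the WT range, and its part in the Ccl6 level was not tested.

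**Figure D2:**
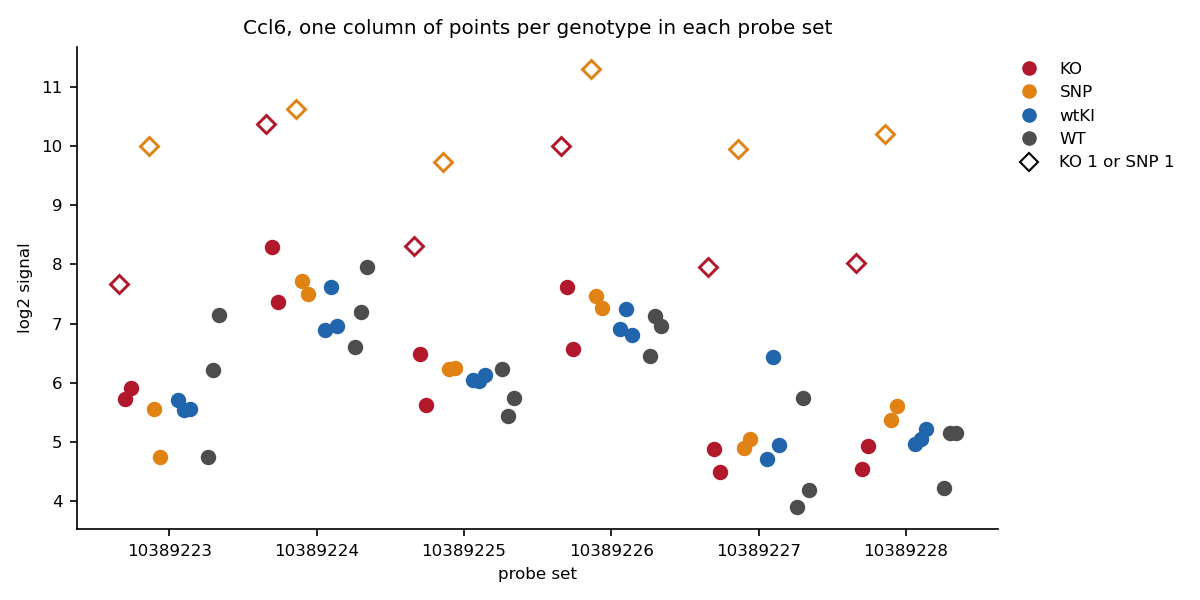
Log2 signal of each of the 6 Ccl6 probe sets on the 12 arrays, coloured by genotype, with KO 1 and SNP 1 as open diamonds. In every probe set SNP 1 is the highest array and KO 1 the next, and 10389228 is in the table through these arrays alone.

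**Figure D3:**
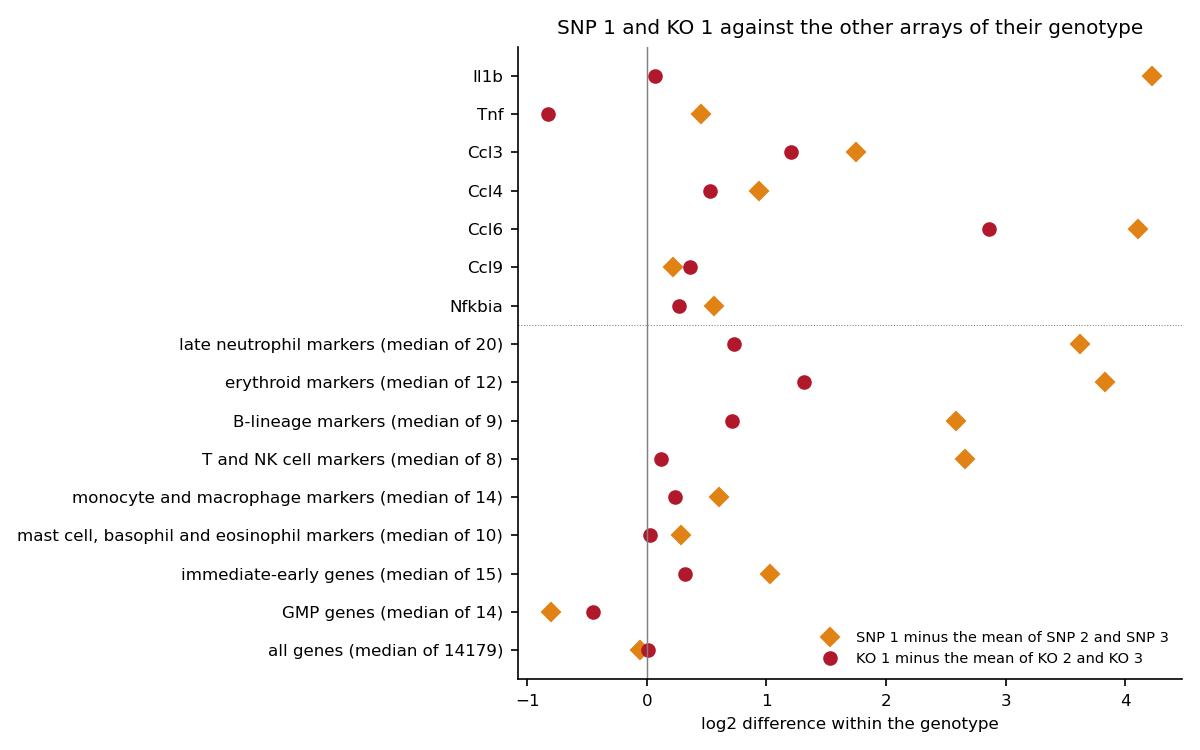
Difference of KO 1 from the mean of KO 2 and KO 3, and of SNP 1 from the mean of SNP 2 and SNP 3, for each member, and as medians for marker lists, GMP genes, immediate-early genes and all genes, on the log2 scale. SNP 1 is above the other SNP arrays by 4.22 for Il1b and 4.11 for Ccl6 and by 0.22 for Ccl9, and KO 1 is above the other KO arrays by 2.86 for Ccl6.

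Across the members, 20 of 29 probe sets were highest on SNP 1, against 17.2% of all probe sets. In 3 of these 20, the Il1b rows that reached 6.14 through SNP 1 alone, that place was fixed by how the table was selected. The 20 were every probe set of Il1b, Ccl4, Ccl6 and Nfkbia and 3 of the 4 of Ccl3. Neither Tnf probe set and none of the 6 Ccl9 probe sets was highest there. As gene values, 5 of 7 members were highest on SNP 1, against 20% of all genes, and Il1b and Ccl6 were at least 1 on the log2 scale above every other array, against 3.02% of all genes. The Il1b gene value includes those 3 rows and so was partly set by that selection. The Ccl6 gene value includes 10389228, which reached 6.14 on KO 1 and SNP 1 alone.

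Ccl9 differed from the other members in which genotype was high. Ccl9 encodes MIP-1 gamma, another Ccr1 ligand of rodents, and its gene lies beside Ccl6 and Ccl3 on mouse chromosome 11. It was at 8.55, 8.11 and 8.26 in KO GMPs, 8.40, 7.98 and 8.40 in SNP GMPs, 9.34, 8.82 and 9.17 in wtKI GMPs and 8.34, 8.32 and 8.99 in WT GMPs. Genotype means were 8.30 ± 0.22 in KO, 8.26 ± 0.24 in SNP, 9.11 ± 0.26 in wtKI and 8.55 ± 0.38 in WT (SD, n = 3 each), with wtKI highest. The wtKI arrays lay above every KO and SNP array and overlapped WT through WT 3, while WT, KO and SNP overlapped each other. SNP minus wtKI was -0.85 ± 0.23 (SE, log2, n = 3 each; limma adjusted p = 0.551), with a 95% interval of -1.36 to -0.33. Without SNP 1 it was as large, at -0.92 ± 0.26 (limma adjusted p = 0.891). wtKI minus WT was 0.56 ± 0.23 (adjusted p = 1.00) and KO minus WT was -0.24 ± 0.23 (adjusted p = 1.00).

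Sex was not balanced over the genotypes, which bears on every member and not on Ccl9 alone. By the Y-linked gene Eif2s3y, 3 arrays came from female RNA: wtKI 2, wtKI 3 and WT 3, of which WT 3 held the highest WT value. The highest Ccl9 value of all, 9.34, was on wtKI 1, a male array. With sex as a term, SNP minus wtKI of Ccl9 was -0.74 ± 0.30 (limma adjusted p = 0.947) and wtKI minus WT was 0.51 ± 0.26 (adjusted p = 1.00). In that fit SNP minus wtKI was 1.68 ± 0.72 for Tnf, 0.88 ± 0.38 for Ccl4 and 0.72 ± 0.30 for Nfkbia. Of the 7 members 6 were higher in SNP than in wtKI and 1 lower, with adjusted p from 0.947 to 0.948 (limma).

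The Ccl9 probe sets did not all show the difference. Probe set 10389216 averaged 11.11 in SNP and 11.14 in wtKI, a difference of -0.03 ± 0.21 (SE, log2, n = 3 each). Probe set 10389218 averaged 7.14 in SNP and 8.30 in wtKI, a difference of -1.15 ± 0.34. Probe sets 10389217, 10389219 and 10389220 differed by -0.83 ± 0.36, -1.08 ± 0.44 and -0.97 ± 0.33, and 10389215 by -0.46 ± 0.32, none with an adjusted p under 0.05 in limma over 98975 probe sets, of which 0.00303% passed. The cause of the disagreement was not tested.

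**Figure D4:**
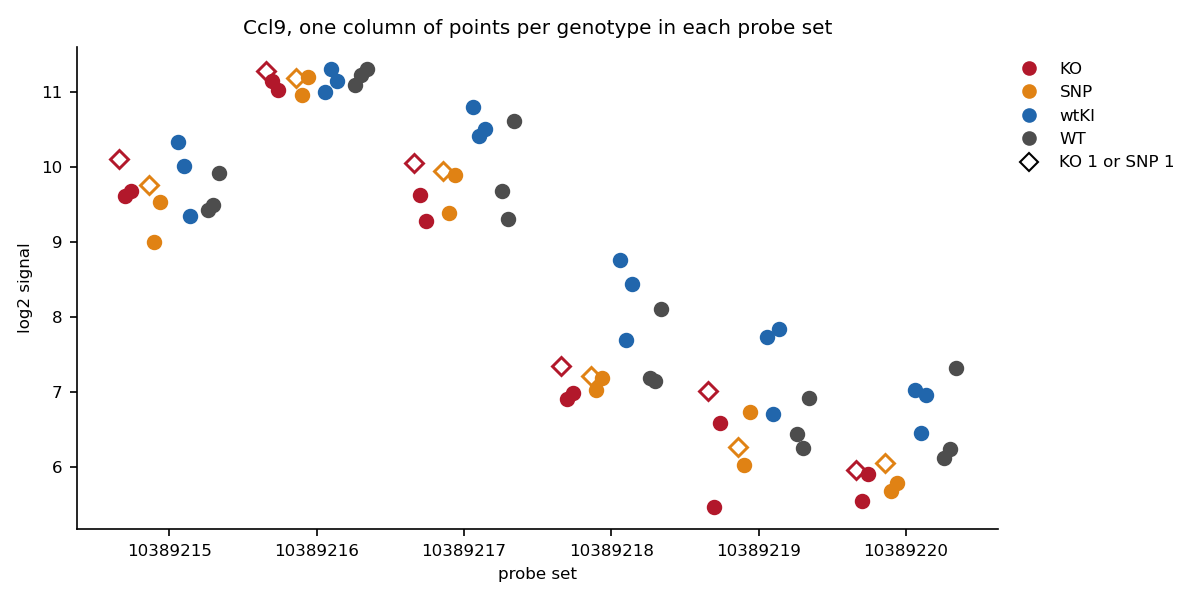
Log2 signal of each of the 6 Ccl9 probe sets on the 12 arrays, coloured by genotype, with KO 1 and SNP 1 as open diamonds. The SNP arrays average 7.14 and the wtKI arrays 8.30 in probe set 10389218, while SNP and wtKI average 11.11 and 11.14 in probe set 10389216.

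Nfkbia was measured well above background on every array. It was at 7.95, 7.67 and 7.69 in KO GMPs, 8.81, 8.23 and 8.26 in SNP GMPs, 7.61, 8.32 and 7.68 in wtKI GMPs and 7.49, 7.94 and 7.79 in WT GMPs. As gene values all SNP arrays lay above all WT and KO arrays, and wtKI 2 lay within the SNP range. SNP minus WT was 0.69 ± 0.24 (SE, log2, n = 3 each; limma adjusted p = 0.265), and 0.51 ± 0.24 (adjusted p = 0.489) without SNP 1. SNP minus wtKI was 0.56 ± 0.24 (adjusted p = 0.551), and 0.37 ± 0.24 (adjusted p = 0.945) without SNP 1. KO minus WT was 0.03 ± 0.24, with a 95% interval of -0.50 to 0.55. Its 3 probe sets had SNP minus WT differences of 0.38 ± 0.37 for 10400406, 1.36 ± 0.42 for 10400407 and 0.63 ± 0.30 for 10400409. SNP and KO overlapped in each of these 3 probe sets. SNP and WT overlapped in 10400406, where WT 2 was at 8.48 and SNP 3 at 7.75, and not in the others.

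No member passed an adjusted p of 0.05 in any comparison by limma on 12 arrays, where 0% of all genes passed. KO minus WT had 0 of 7 members with an unadjusted p under 0.05, against 4.72% of all genes, and 0 whose groups did not overlap, against 11.8% of all genes. SNP minus wtKI had 2 with an unadjusted p under 0.05, Ccl9 and Nfkbia, against 8.88% of all genes. In that comparison Il1b and Ccl6 were higher without overlap, against 7.22% of all genes, and Ccl9 was lower without overlap, against 7.41%. wtKI minus WT had 1 with an unadjusted p under 0.05, Ccl9, against 3.06%, and 0 without overlap, against 12.6%. SNP minus WT had 2 with an unadjusted p under 0.05, Tnf and Nfkbia, against 15.9%, and 4 that were higher without overlap, Il1b, Tnf, Ccl6 and Nfkbia, against 12.9%. The test of any difference between the 4 genotypes had 3 with an unadjusted p under 0.05, Tnf, Ccl9 and Nfkbia, against 9.07%, and its adjusted p was 0.501 to 0.824 over the members.

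Without SNP 1, again no member passed an adjusted p of 0.05, against 0.0353% of all genes in KO minus WT and 0% in the other 3 pairs. Il1b and Ccl9 then had an unadjusted p under 0.05 in SNP minus wtKI, 2 of 7 members against 5.4% of all genes. Ccl9 alone did in wtKI minus WT, against 4.63%, and Il1b and Tnf did in SNP minus WT, against 10.5%. No member did in KO minus WT, against 6.93%.

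Relative to WT, 6 of 7 members were higher in SNP, with a median of 0.69 on the log2 scale, against -0.01 over all genes, and without SNP 1 it was 5 of 7 with a median of 0.43. Relative to wtKI, 6 of 7 were higher in SNP, with a median of 0.68, against -0.02 over all genes, and without SNP 1 it was again 6 of 7, with a median of 0.36. In KO relative to WT 4 of 7 were higher, with a median of 0.00, and without KO 1 and SNP 1 it was 2 of 7 with a median of -0.18. SNP minus WT and KO minus WT share the WT arrays, and SNP minus WT and SNP minus wtKI share the SNP arrays. The variant effect (SNP minus wtKI) minus the loss effect (KO minus WT) was 2.07 ± 1.22 for Il1b, 1.01 ± 0.84 for Tnf and -0.60 ± 0.33 for Ccl9 (SE, log2, n = 3 each). The adjusted p of that difference was 0.991 to 0.993 over the 7 members (limma), where 0% of genes passed, and 0 members had an unadjusted p under 0.05, against 4.49% of all genes. Without SNP 1 it was 0.66 ± 0.24 for Il1b (adjusted p = 0.956), 0.86 ± 0.90 for Tnf and -0.68 ± 0.35 for Ccl9 (limma). Il1b alone of the members then had an unadjusted p under 0.05, against 262 higher and 425 lower genes of 14179 in all. Leaving out 1 array at a time, the Tnf value ran from 0.55 without WT 3 to 1.65 without KO 3.

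**Figure D5:**
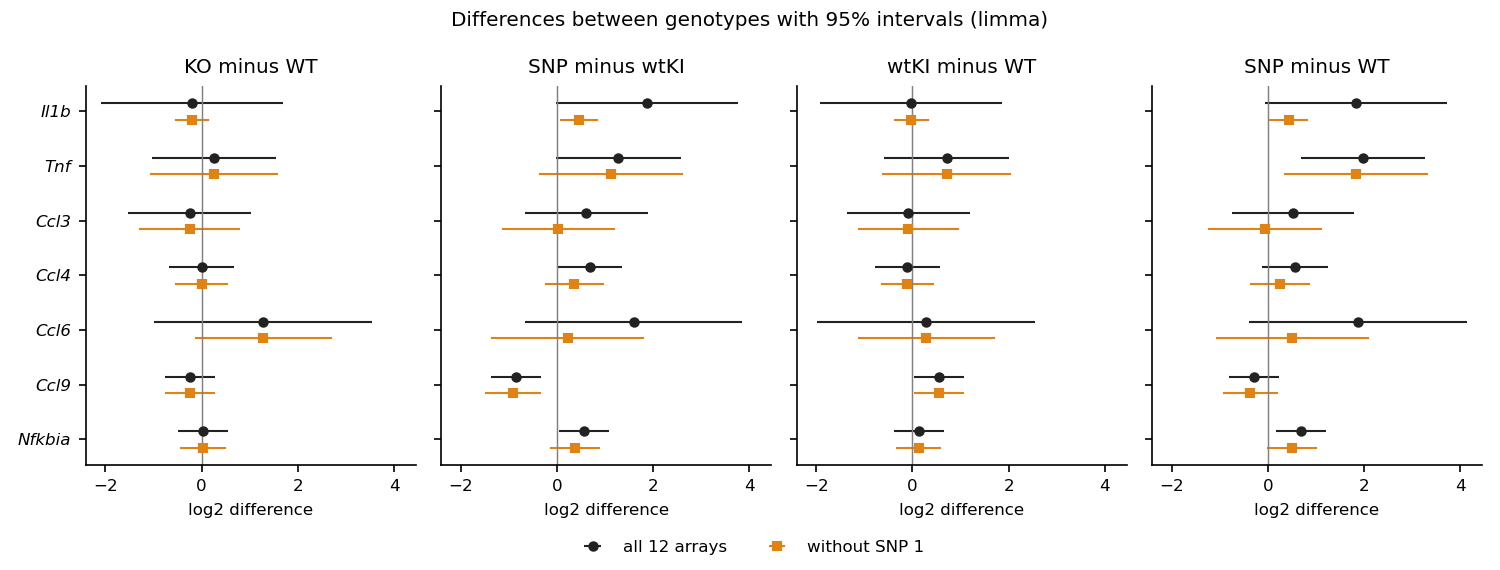
Log2 difference of each member in 4 comparisons with its 95% interval from limma, on all 12 arrays (circles) and without SNP 1 (squares). Without SNP 1 the SNP minus wtKI difference of Il1b is 0.46 and that of Ccl6 is 0.22, while that of Ccl9 is -0.92.

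Receptors of these ligands were read beside them. Of 15 cytokine and chemokine receptor genes measured, 7 were higher in SNP than in wtKI, with a median of -0.08, and without SNP 1 it was 5 with a median of -0.33 (0 passed in limma in either direction). Ccr1, the shared receptor of Ccl3, Ccl6 and Ccl9, was at 4.85, 3.12 and 2.57 in KO GMPs, 6.76, 2.43 and 4.20 in SNP GMPs, 6.11, 7.51 and 6.15 in wtKI GMPs and 6.18, 4.87 and 2.31 in WT GMPs. It was thus highest on average in wtKI, as Ccl9 was, with many values near background. Ccr1 SNP minus wtKI was -2.13 ± 1.14 (SE, log2, n = 3 each; limma adjusted p = 0.555), and -3.27 ± 0.98 (adjusted p = 0.519) without KO 1 and SNP 1. Cxcr2, the receptor through which neutrophils follow Cxcl1 and Cxcl2, was at 6.74, 7.54 and 8.001 in KO GMPs, against 8.98, 9.03 and 8.38 in WT GMPs. These Cxcr2 groups did not overlap, as in 11.8% of all genes, and KO minus WT was -1.37 ± 0.78 (adjusted p = 1.00). In SNP GMPs Cxcr2 was at 11.18, 7.51 and 7.84, high on SNP 1 alone, and Cxcr2 is also one of the late neutrophil markers counted above. Il1r2, the decoy receptor that binds interleukin-1 without signalling, was at 10.58 on SNP 1 and between 3.11 and 6.20 on the other arrays.

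The other cytokine and chemokine genes and the NF-kB pathway showed no gene past the threshold. Of 21 other cytokine and chemokine genes measured, 13 were higher in SNP than in wtKI, with a median of 0.28, and 11 without SNP 1, with a median of 0.10. Of the same 21, 8 were higher in KO than in WT, with a median of -0.08. Of 22 NF-kB subunits, inhibitors and induced genes, 12 were higher in SNP than in wtKI, with a median of 0.19, and 9 without SNP 1, with a median of -0.11. Of 24 genes that sense microbial products and signal to NF-kB, 14 were higher in SNP than in wtKI, with a median of 0.03, and 10 without SNP 1, with a median of -0.05, which turns the direction. In that list 11 were higher in KO than in WT, with a median of -0.01. Over all genes 47.5% were higher in SNP than in wtKI and 46.9% in KO than in WT. Nfkbiz encodes a nuclear IkB protein induced by NF-kB. Nfkbiz was at 6.90, 6.95 and 6.63 in KO GMPs, 8.67, 6.36 and 6.91 in SNP GMPs, 6.66, 6.30 and 6.17 in wtKI GMPs and 4.55, 6.17 and 6.09 in WT GMPs. Its KO and SNP arrays lay above all WT arrays, with KO minus WT at 1.22 ± 0.55 (SE, log2, n = 3 each; limma adjusted p = 1.00) and SNP minus WT at 1.71 ± 0.55 (adjusted p = 0.263). Over all genes, KO and WT did not overlap in 11.8%, and SNP was above WT without overlap in 12.9%. SNP 1 was its highest array and WT 1, at 4.55, its lowest, and both differences include WT 1. Without KO 1 and SNP 1, SNP minus WT was 1.03 ± 0.44 (limma adjusted p = 0.298) and KO minus WT was 1.19 ± 0.44 (adjusted p = 0.592). Nfkb1, which encodes the p105 precursor of the p50 subunit, differed by -0.03 ± 0.21 in KO minus WT.

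The ranking of like genes is a description only, since amplification can differ between arrays and move many genes together. Genes whose values across arrays were most like each member's were ranked by Pearson's r over the 11 arrays without SNP 1. For Il1b these were Rnf17 (r = 0.947), Gal (0.943) and Adam3 (0.914), and with SNP 1 added the r of Adam3 was -0.482. For Tnf they were Fbxo30 (r = 0.884), Zfp386 (0.881) and Mest (0.865), and for Ccl3 Ube2d2a (r = 0.919), Ddr1 (0.838) and Kcnd3os (0.838). For Ccl4 they were Apba3 (r = 0.951), Nfe2l3 (0.908) and Cdh15 (0.894). For Ccl6 they were Myo5b (r = 0.955), Apoc2 (0.943) and Gtsf1 (0.942). For Ccl9 they were Afdn (r = 0.886), Lysmd1 (0.872) and Gm12760 (0.856), and for Nfkbia Prss16 (r = 0.825), Mcpt1 (0.814) and Gm5134 (0.812). No member was among the 3 genes most like another member.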

How the data were processed

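Per the labels' protocols, RNA came from an RNeasy Micro kit and a NuGEN Pico amplification. The authors deposited log2 signals; the submitters' processing notes name RMA, whose version is not given in the sources used here. The table holds 105661 probe sets, of which the platform annotation pairs 98975 with 1 gene symbol; symbols were updated through RefSeq (GRCm38.p6), which held 14146 of 14179 genes. How its rows were selected is not stated.

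Probe sets with 1 symbol were summarised per gene by median polish. All 12 arrays were fitted with limma 3.58.1 in R 4.3.3 (lmFit, eBayes; genotype only), with Benjamini-Hochberg adjustment over 14179 genes and a threshold of 0.05. The script was tested on simulated data. Errors beside differences are standard errors. The number of arrays limits the precision.

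Named genes were the members, pathway genes picked by role, and the 3 genes most like each member. Members and lists were chosen with earlier results of these data known. Alternatives were other gene summaries, scalings, filters and fits, sex as a term, and leaving out each array. Between the genotypes of each pairwise comparison, same-numbered arrays did not deviate together (correlations -0.0484 to 0.113), so numbers were not taken as pairs. That correlation was not computed between KO and SNP arrays. The KO array and the SNP array that stood apart share a replicate number, and both were high in Ccl6, so a shared deviation of those arrays was not tested.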

Additional observations from a re-analysis of the deposited data

How the results depend on the processing

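Over 24 alternatives 970 single-gene values were recomputed: 933 kept their direction and their side of the threshold, 36 turned in direction and 1 passed the threshold. No member passed in any pairwise comparison or in the variant effect minus the loss effect under any alternative run. With array weights, which gave SNP 1 a weight of 0.165 and KO 2 one of 6.85, 1 member passed the test of any difference between genotypes, Ccl9 (adjusted p = 0.0247), as did 784 genes in all, and 507 genes passed in KO minus WT. With the replicate number as a block 0 members and 0 genes passed in each comparison. The filter on the dimmest 30% of genes removed Il1b, Tnf, Ccl3 and Ccl6.

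The values that turned were at most 1.01 in size on the log2 scale in the fit reported, and the cause was not tested. In KO minus WT, array weights gave -0.375 for Tnf, -0.0382 for Ccl4 and -0.0447 for Nfkbia. Without both KO 1 and SNP 1 it was -0.176 for Ccl4 and -0.0617 for Nfkbia. The mean of the probe sets gave -0.29 for Ccl4, and testing each probe set gave -0.0335 for Ccl4 and -0.0045 for Nfkbia. In wtKI minus WT, median centring gave 0.0037 for Il1b, the mean of the probe sets 0.54 for Ccl4, and each probe set 0.0952 for Ccl3 and 0.0670 for Ccl4. There the probe set with the highest mean gave 0.0526 for Ccl3, -0.0969 for Ccl6 and -0.0560 for Ccl9. SNP minus WT of Ccl3 was -0.0550 without both KO 1 and SNP 1. For the variant effect minus the loss effect, the probe set with the highest mean gave -0.174 for Tnf and 0.0166 for Ccl9, and Ccl6 was -0.0507 with array weights and -0.10 without both KO 1 and SNP 1.

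Leaving out 1 array at a time, KO minus WT ran from -0.38 to 0.72 for Tnf, -0.18 to 0.17 for Ccl4 and -0.10 to 0.13 for Nfkbia. wtKI minus WT ran from -0.0693 to 0.0285 for Il1b, -0.35 to 0.15 for Ccl3, -0.31 to 0.14 for Ccl4 and -0.0922 to 0.27 for Nfkbia. SNP minus WT of Ccl3 ran from -0.0550 to 1.26, and the variant effect minus the loss effect of Ccl6 from -1.06 to 1.27. Ccl9 SNP minus wtKI stayed between -0.99 and -0.71, and was -0.03 with the probe set of highest mean. Over all alternatives the adjusted p of SNP minus WT ran from 0.128 to 0.515 for Il1b, 0.098 to 0.502 for Tnf and 0.142 to 0.503 for Nfkbia, and that of SNP minus wtKI from 0.251 to 0.954 for Ccl9 and 0.323 to 0.993 for Ccl6. Signal near background limits what can be said of Il1b and Tnf.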

Other observations

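Myd88, the adaptor through which interleukin-1 and most Toll-like receptors signal, was at 8.14, 8.16 and 8.47 in KO GMPs, 8.85, 7.52 and 6.84 in SNP GMPs, 7.75, 7.54 and 7.41 in wtKI GMPs and 8.10, 8.42 and 8.24 in WT GMPs. All wtKI arrays and the SNP arrays other than SNP 1 were below every KO and WT array. Over all genes, wtKI and WT did not overlap in 12.6%. SNP minus WT was -0.52 ± 0.39 (SE, log2, n = 3 each; limma adjusted p = 0.485), and -1.07 ± 0.22 (adjusted p = 0.150) without KO 1 and SNP 1.

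Nfkbie, another inhibitor of NF-kB, was at 9.04 on SNP 1 and between 3.93 and 6.77 on the others. Nlrp3, the sensor of the inflammasome that leads to processing of interleukin-1 beta, was at 8.40 on SNP 1, with 6.13 and 4.52 on SNP 2 and SNP 3. Casp1, which encodes the protease that cleaves the interleukin-1 beta precursor, was between 8.58 and 9.12 on all 12 arrays. Tlr2, a receptor for bacterial lipoproteins, was at 8.45 on SNP 1, with 6.71 and 6.27 on the other SNP arrays.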
